A study of Mus musculus with 15 samples.

Results

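The comparison described here sets mouse small-intestinal epithelial cells taken after 4 days of RANKL against cells from untreated controls. It was defined by the sample titles, which name 3 arrays for day 4 and 3 for the control, 6 of the 15 arrays in the series. All mice were wild-type BALB/c, 10 weeks old. The day 4 mice had received intraperitoneal injections of a GST-RANKL fusion protein for 4 days, and the labels name no agent for the control mice. No group given GST or a vehicle was analysed here, so RANKL, its GST tag and the injections cannot be told apart. The cells had been peeled from the tissue after exposure to 30 mM EDTA for 10 minutes, so a whole epithelium, with whatever other cells came off with it, went onto each array. The labels leave unstated whether each array stands for its own mouse, and every p-value below measures the spread between arrays only. The other 9 arrays, from days 1, 2 and 3 of the same treatment, entered the fit to estimate that spread, and days 1 and 3 are set against day 4 further on.

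RANKL, the product of Tnfsf11, is a cytokine of the tumour necrosis factor family that binds the receptor RANK, the product of Tnfrsf11a. In the intestine it is made by stromal cells beneath Peyer's patches and drives overlying epithelial cells to become M cells, which carry particles and bacteria from the lumen to the lymphoid tissue below. RANK signals through NF-kB, including the non-canonical branch of p52 and RelB, and systemic RANKL is known to bring out M cells on villi that normally lack them. M cells turn on the transcription factor Spi-B early and the uptake receptor GP2 late.

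The epithelial transcripts Epcam and Vil1 were abundant and alike on all 6 arrays. Epcam, an epithelial adhesion molecule, read between 11.73 and 11.99 on the log2 scale, and Vil1, the microvillus protein villin, between 12.37 and 12.80. Transcripts of 6 Y-linked genes, which gave the lowest steady readings, lay between 4.92 and 5.44, although the probe set for Sry read 7.95 to 8.39, so background differs from one probe set to another. Levels are therefore compared between arrays for the same gene and not between genes. On the deposited scale the median intensity was 146.9 to 153.4 on the 6 arrays. The median standard error of a difference was 0.10 log2 units, which gives a 95% interval of about 0.22 either way, and the number of arrays limits this precision.

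After 4 days the epithelium had gained far more transcripts than it had lost. Of 19938 genes, 181 (0.908%) differed from the control at an adjusted p below 0.05, called here and below with limma's moderated test and Benjamini-Hochberg adjustment over all genes. Among them 163 (0.818% of all genes) were higher and 18 (0.0903%) were lower, so that 90.1% of the calls were rises. These shares over all genes are the ones to set beside the list counts below. Falls were rare over all genes, so a list without a fall is not a result about its members. The median rise was 0.73 log2 units and the median fall was -0.85, while the median change over all genes was 0.006. A change of at least 1 log2 unit was reached by 47 of the rises and 7 of the falls. The 3 day 4 arrays lay entirely above or entirely below the 3 controls in each called gene, which the calling favours, and in 18.2% of all genes. Of these calls, 80 (76 rises and 4 falls) passed when any 1 of the 15 arrays was left out, and a gene that did not is named as such. The total moved to 94 without day 4 replicate 2, to 96 without control replicate 2, to 113 without day 4 replicate 1, to 120 without control replicate 1 and to 338 without day 1 replicate 2.

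**Figure D1:**
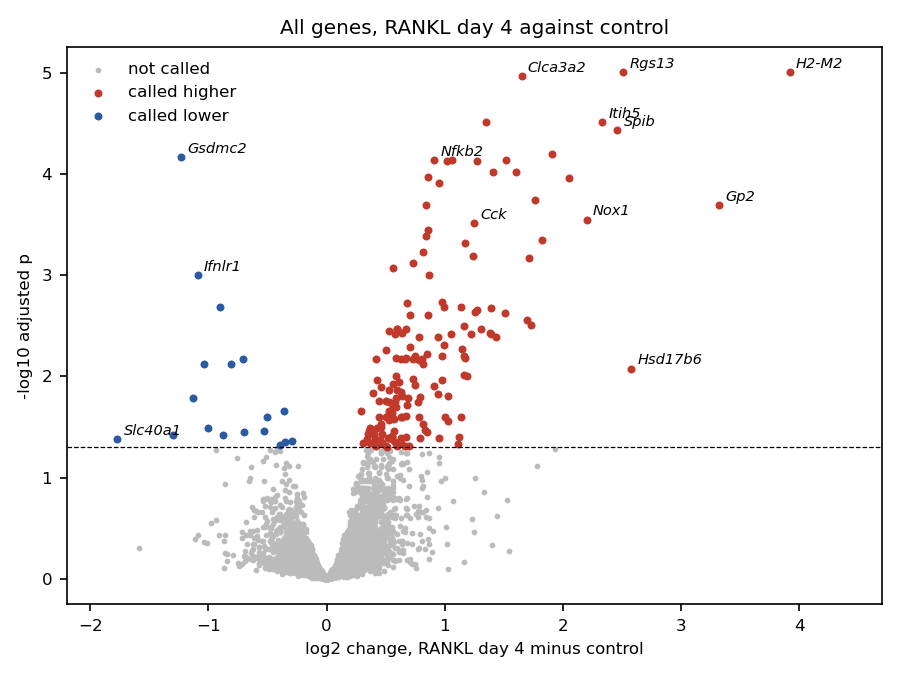
Each point is 1 of 19938 genes. The horizontal axis is the day 4 minus control difference in log2 intensity and the vertical axis is -log10 of the limma adjusted p, with the dashed line at 0.05. Most called points lie to the right, 163 against 18, with H2-M2 farthest out at 3.92.

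Many of the listed M cell genes rose, with H2-M2 and Gp2 among the greatest increases. The list of M cell markers had 33 measured members, and 17 of them (51.5%) rose, against 0.818% of all genes. The list was chosen with earlier results of these data known, so its count is not independent of them. None was called lower, and the median change of the list was 0.76. The leading gene overall was H2-M2, a non-classical MHC class I gene. It read 6.39, 7.02 and 6.31 in the controls and 10.56, 10.88 and 10.05 on day 4. That is a rise of 3.92 ± 0.26 (SE), or 15.2-fold, with n = 3 arrays per group and an adjusted p of 9.95e-06. Gp2, the glycoprotein 2 receptor by which mature M cells bind FimH-bearing bacteria, read 5.94, 5.95 and 6.22 in the controls. On day 4 it read 8.97, 10.17 and 8.95, a rise of 3.32 ± 0.34 (10.0-fold, adjusted p = 0.000203). Spib, which encodes the Ets-family factor required for M cell maturation, went from 6.50, 6.81 and 6.63 to 8.96, 9.58 and 8.77, a rise of 2.46 ± 0.20 (5.49-fold, adjusted p = 3.67e-05). In these 3 genes the lowest day 4 array stood more than 1 log2 unit above the highest control, and day 4 replicate 2 was the highest of the 3 treated arrays each time. In RNA from bulk epithelium, more cells of a type and more transcript per cell cannot be told apart.

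Genes for handling cargo and for the lysosome were among the other M cell markers that rose. Anxa5, which encodes the phosphatidylserine-binding annexin A5, rose by 2.05 ± 0.20 (adjusted p = 0.000109), from at most 8.71 in the controls to at least 10.32 on day 4. Mfge8, whose secreted product bridges apoptotic cells to phagocytes, rose by 1.82 ± 0.21, and Ctsh, a lysosomal cysteine protease, by 1.76 ± 0.18. For Ctsh the day 4 arrays spread widely, at 9.16, 10.0 and 9.38, above controls of 7.71 to 7.81. Prnp, the prion protein gene, was higher by 1.22 ± 0.18 (adjusted p = 0.00381). Tnfaip2, an M cell gene of the exocyst-related family, read 7.11, 6.59 and 6.95 against 7.71, 8.25 and 8.13. Its rise of 1.14 ± 0.22 (adjusted p = 0.0255) was lost, at adjusted p of 0.0685 to 0.141, when day 4 replicate 2 or 3 or control replicate 2 or 3 was left out. Sox8, a factor needed for M cell maturation, did not pass: 7.23, 7.11 and 7.39 against 7.38, 7.65 and 7.47, a difference of 0.26 ± 0.10 with an adjusted p of 0.406. Tnfrsf11a, the receptor itself, read 9.53 to 9.59 in the controls and 9.91 to 10.13 on day 4. The groups did not overlap, but the difference of 0.44 ± 0.11 had an adjusted p of 0.0888. It passed without day 3 replicate 1 (0.0268) or day 3 replicate 3 (0.0423).

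**Figure D2:**
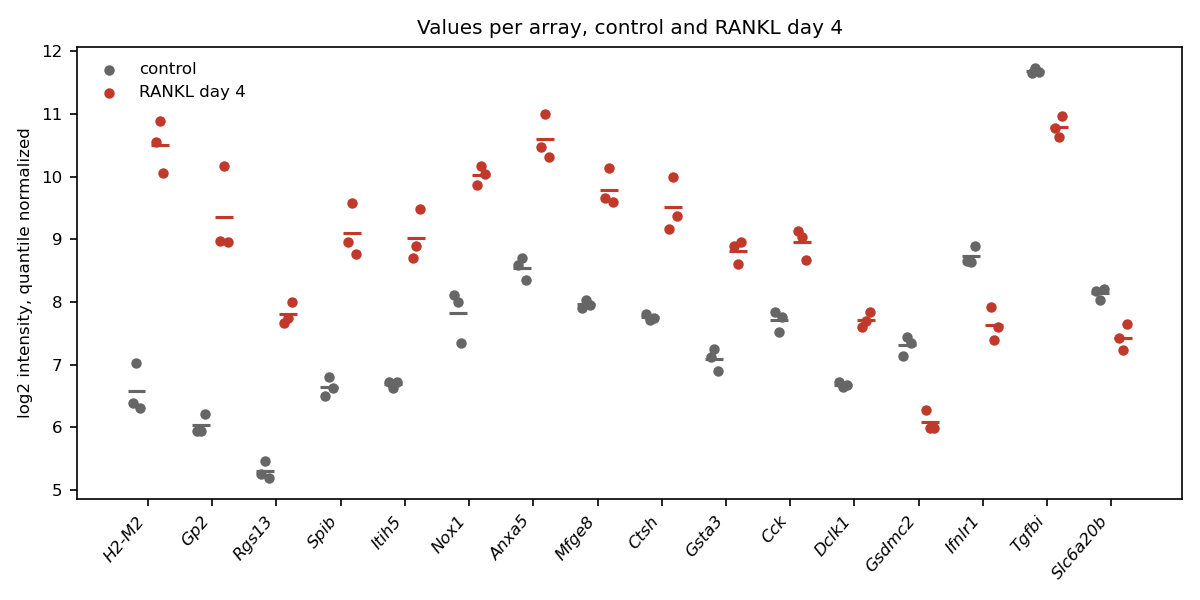
Log2 intensity, quantile normalized, of 12 genes that rose and 4 that fell, with 1 point for each of the 3 control (grey) and 3 day 4 (red) arrays and short lines at the group means. The groups do not overlap for any gene shown, which held for every called gene and for 18.2% of all genes. H2-M2 has the greatest distance between its means, at 3.92.

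Some chemokines rose. Of 35 measured members of the family, 5 (14.3%) rose, against 0.818% of all genes, and none fell. The family's median change was -0.05, and 4 of the 5 are also on the M cell list. Ccl20, whose product attracts CCR6-bearing lymphocytes and dendritic cells, read 7.45, 8.03 and 7.57 in the controls and 9.24, 9.55 and 9.38 on day 4, a rise of 1.71 ± 0.20 (3.27-fold, adjusted p = 0.000676). Cxcl16, a ligand of CXCR6, rose by 1.35 ± 0.11 (adjusted p = 3.09e-05), and Ccl9 rose by 1.26 ± 0.17 (adjusted p = 0.00234). Ccl6 rose less, by 0.60 ± 0.09, from an already high 11.11 to 11.17. Cxcl11, an interferon-inducible chemokine, was higher by 1.12 ± 0.23 (adjusted p = 0.0399). That call was lost without 8 of the 15 arrays in turn, with adjusted p up to 0.174 when control replicate 1 was left out.

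A minority of the NF-kB list rose. Of its 35 measured members 5 (14.3%) rose, against 0.818% of all genes, and none fell. The median change was 0.07. The mean log2 level of the list was 7.94 to 8.01 in the controls and 8.17 to 8.21 on day 4. Nfkb2, which encodes the p100 precursor of p52, read 8.89, 8.59 and 8.81 in the controls and 9.54, 9.71 and 9.78 on day 4, a rise of 0.91 ± 0.08 (1.88-fold, adjusted p = 7.27e-05). Icam1, an adhesion molecule for leukocytes and a classical NF-kB target, rose by 0.84 ± 0.09 (adjusted p = 0.000408), from at most 7.88 to at least 8.49. Relb, the partner of p52, read 8.88 to 9.08 in the controls and 8.89 to 9.03 on day 4, a difference of 0.02 ± 0.07 with a 95% interval of -0.14 to 0.18. The remaining calls were Ccl20, the inhibitor gene Nfkbia (0.63 ± 0.13) and the adaptor gene Traf2 (0.40 ± 0.08). The Nfkbia and Traf2 calls each ended without 9 of the 15 arrays in turn. The count of 5 became 3 without day 3 replicate 3, day 4 replicate 1, day 4 replicate 3 or control replicates 1 or 2.

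The 250 bases before the annotated start of 4 of these genes are shown because they place the kappaB motif, the consensus letters bound by NF-kB dimers, beside genes that rose. Sequences are those of RefSeq on GRCm38.p6, 5′ to 3′ on the gene's own strand, with motif matches on either strand in capitals.
Ccl20, chr1:83116516-83116765, plus strand: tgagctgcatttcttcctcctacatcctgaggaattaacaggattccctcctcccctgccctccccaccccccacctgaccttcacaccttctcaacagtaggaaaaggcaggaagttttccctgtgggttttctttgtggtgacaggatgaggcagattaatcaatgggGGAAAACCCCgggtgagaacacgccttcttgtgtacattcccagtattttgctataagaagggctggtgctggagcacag
Nfkb2, chr19:46304487-46304736, plus strand: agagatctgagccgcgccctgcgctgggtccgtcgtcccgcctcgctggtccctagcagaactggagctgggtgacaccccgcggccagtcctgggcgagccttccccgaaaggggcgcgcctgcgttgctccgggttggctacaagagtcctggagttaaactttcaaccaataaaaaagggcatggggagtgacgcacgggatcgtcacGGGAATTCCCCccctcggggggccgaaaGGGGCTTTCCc
Spib, chr7:44532072-44532321, minus strand: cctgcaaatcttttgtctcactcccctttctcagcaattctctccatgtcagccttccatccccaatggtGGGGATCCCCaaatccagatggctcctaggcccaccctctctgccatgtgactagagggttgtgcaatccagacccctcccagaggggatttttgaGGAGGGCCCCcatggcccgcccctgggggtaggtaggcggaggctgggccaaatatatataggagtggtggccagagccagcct
H2-M2, chr17:37483555-37483804, minus strand: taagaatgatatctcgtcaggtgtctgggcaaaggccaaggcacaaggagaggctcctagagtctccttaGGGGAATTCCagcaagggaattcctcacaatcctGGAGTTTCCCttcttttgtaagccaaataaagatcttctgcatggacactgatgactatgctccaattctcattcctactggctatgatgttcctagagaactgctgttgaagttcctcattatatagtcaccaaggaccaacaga
Ccl20 held 1 match, 80 to 71 bases before the start. Nfkb2 held 3, of which those beginning 39 and 38 bases before the start overlap, and Spib and H2-M2 held 2 each. A promoter was listed for 127 of the genes that rose, and 28 of them (22%) had at least 1 match, against 1481 of 15614 measured genes (9.5%). Counted by promoter, since a gene can have several, the shares were 18.2% and 8.2%. Of the 12 genes that fell and had a promoter, 2 had a match. The octamer ATGCAAAT, the letters bound by POU factors, was present in 8 of the 127 (6.3%) and in 279 of the 15614 (1.8%). Among the other risen genes named above, Nfkbia held 1 match, and Ccl9 and Tnfaip2 had at least 1. No match was found in these windows for Gp2, Icam1 and Traf2. Anxa5, Mfge8, Ctsh, Prnp, Cxcl16, Ccl6 and Cxcl11 were not among the 28 genes with a match either. Some of these may lack a listed promoter. A match describes letters in this window and is not evidence of binding, and these shares carry no test.

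Genes of the NADPH oxidase and of surface defence rose. Nox1, the catalytic subunit of the epithelial oxidase that makes superoxide, read 8.12, 8.0 and 7.34 in the controls and 9.86, 10.17 and 10.04 on day 4, a rise of 2.20 ± 0.24 (4.61-fold, adjusted p = 0.000283). Cyba, its membrane partner p22phox, rose by 0.86 ± 0.12. Ncf4, which encodes the NADPH oxidase subunit p40phox, rose by 1.39 ± 0.19 (adjusted p = 0.0021). Whether p40phox acts with Nox1 in these cells was not tested. The organizer Noxo1 and the activator Noxa1 both differed by 0.23 and were not called. Pglyrp1, a peptidoglycan-binding protein, rose by 0.95 ± 0.09, from 11.51 to 11.75 in the controls to 12.33 to 12.67, and S100a11, a calcium-binding protein, rose by 0.84 ± 0.09. These 5 were the rises among 38 antimicrobial and acute-phase genes (13.2%, against 0.818% of all genes), none of which fell, with a median change of 0.08. Of 33 genes of the MHC and antigen presentation only H2-M2 and Ctsh rose (6.1%, against 0.818% of all genes), and the median change was -0.16. The class II genes H2-Ab1 (-0.46 ± 0.19) and Cd74 (-0.27 ± 0.10) were not called.

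Tuft cell genes also rose. Tuft cells are chemosensory epithelial cells that release interleukin-25. Of 40 measured tuft cell genes 11 (27.5%) rose, against 0.818% of all genes, and none fell, with a median of 0.24. Rgs13, a regulator of G protein signalling, read 5.25, 5.46 and 5.19 in the controls, next to the level of the Y-linked genes, and 7.67, 7.74 and 8.0 on day 4. The fitted rise was 2.51 ± 0.16, with an adjusted p of 9.95e-06. Since 2 of the 3 controls read within the range of the Y-linked genes, it is given as at least 5.13-fold, with control readings raised to the top of that range. Dclk1, the kinase gene most used to mark tuft cells, read 6.73, 6.64 and 6.68 against 7.60, 7.69 and 7.84, a rise of 1.02 ± 0.09 (2.03-fold, adjusted p = 7.42e-05). Trpm5, the cation channel of taste-type signalling, rose by 1.16 ± 0.18, and Sh2d7 by 1.05 ± 0.15. The 11 include Spib, which is also an M cell gene. Pou2f3, the tuft cell lineage factor, was higher by 0.69 ± 0.12 (adjusted p = 0.0164), a call that ended when day 4 replicate 2 or 3 or control replicate 2 or 3 was left out. The count was 7 without day 4 replicate 2, day 4 replicate 3 or control replicate 3. It was 6 with the dimmest 40% of genes left out, a setting in which fewer of the list's genes are tested.

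Some hormone and lineage genes of enteroendocrine cells rose. Of 20 measured hormone genes 2 (10.0%) rose and none fell, with a median of 0.17. Of 35 lineage and secretory genes 6 (17.1%) rose and none fell, with a median of 0.22. The share of rises over all genes was 0.818%. Cck, which encodes cholecystokinin, read 7.84, 7.52 and 7.76 in the controls and 9.14, 9.04 and 8.67 on day 4, a rise of 1.25 ± 0.14 (2.37-fold, adjusted p = 0.000305). Gcg, the precursor of GLP-1, read 10.67, 10.32 and 10.45 against 11.42, 11.51 and 11.61, a rise of 1.03 ± 0.18 (adjusted p = 0.0156). That second call was lost, at adjusted p of 0.0624 to 0.0924, when day 4 replicate 2 or 3 or control replicate 2 or 3 was left out. Rfx6, a factor of endocrine differentiation, rose by 0.78 ± 0.13, and Scgn, a calcium sensor of endocrine cells, by 0.73 ± 0.12. Chga, chromogranin A, was higher by 0.41 ± 0.12 without a call (adjusted p = 0.173), and Ghrl, the ghrelin gene, by 0.80 ± 0.20 (adjusted p = 0.0957). The hormone count was 1 without day 4 replicate 2, control replicate 2 or 3, each in turn. The lineage count was 3 without day 4 replicate 1, 2 without day 4 replicate 2 or control replicate 1, and 10 without day 1 replicate 2. It was also 3 with the dimmest 40% of genes left out and 10 with weights per array.

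In the goblet cell list the greatest rises came from the Clca gene cluster. Of 25 measured goblet cell genes 5 rose and none fell, with a median of 0.24. Clca3a1 and Clca3b, members of a chloride channel accessory family, rose by 1.41 ± 0.13 and 0.86 ± 0.08, and their neighbour Clca3a2, outside the list, rose by 1.65 ± 0.12 (3.15-fold, adjusted p = 1.08e-05). The 3 genes lie next to each other on chromosome 3 and are close paralogs, so probe sets may read more than 1 of them. Muc2, the main secreted mucin, read 13.73 to 13.78 in the controls and 13.68 to 13.76 on day 4, a difference of -0.05 ± 0.08. The count was 3 without any 1 of the day 4 arrays, control replicate 2 or control replicate 3. Of 29 measured stem cell markers 4 (13.8%) rose, against 0.818% of all genes, and 0 fell, and the median of the list was 0.23. The rises were Aqp4 (0.78 ± 0.12), Clca3b, already counted among the goblet cell genes, Cd44 (0.98 ± 0.17) and Tnfrsf19 (0.42 ± 0.09). The Cd44 call ended without day 4 replicate 2 or control replicate 2, and that of Tnfrsf19 without 11 of the 15 arrays in turn. Lgr5, the receptor that defines crypt base columnar stem cells, read 8.41, 8.08 and 7.90 against 8.22, 8.35 and 8.42, a difference of 0.20 ± 0.23. The stem cell count was 2 without day 4 replicate 2 or control replicate 2 and 7 without day 2 replicate 3.

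**Figure D3:**
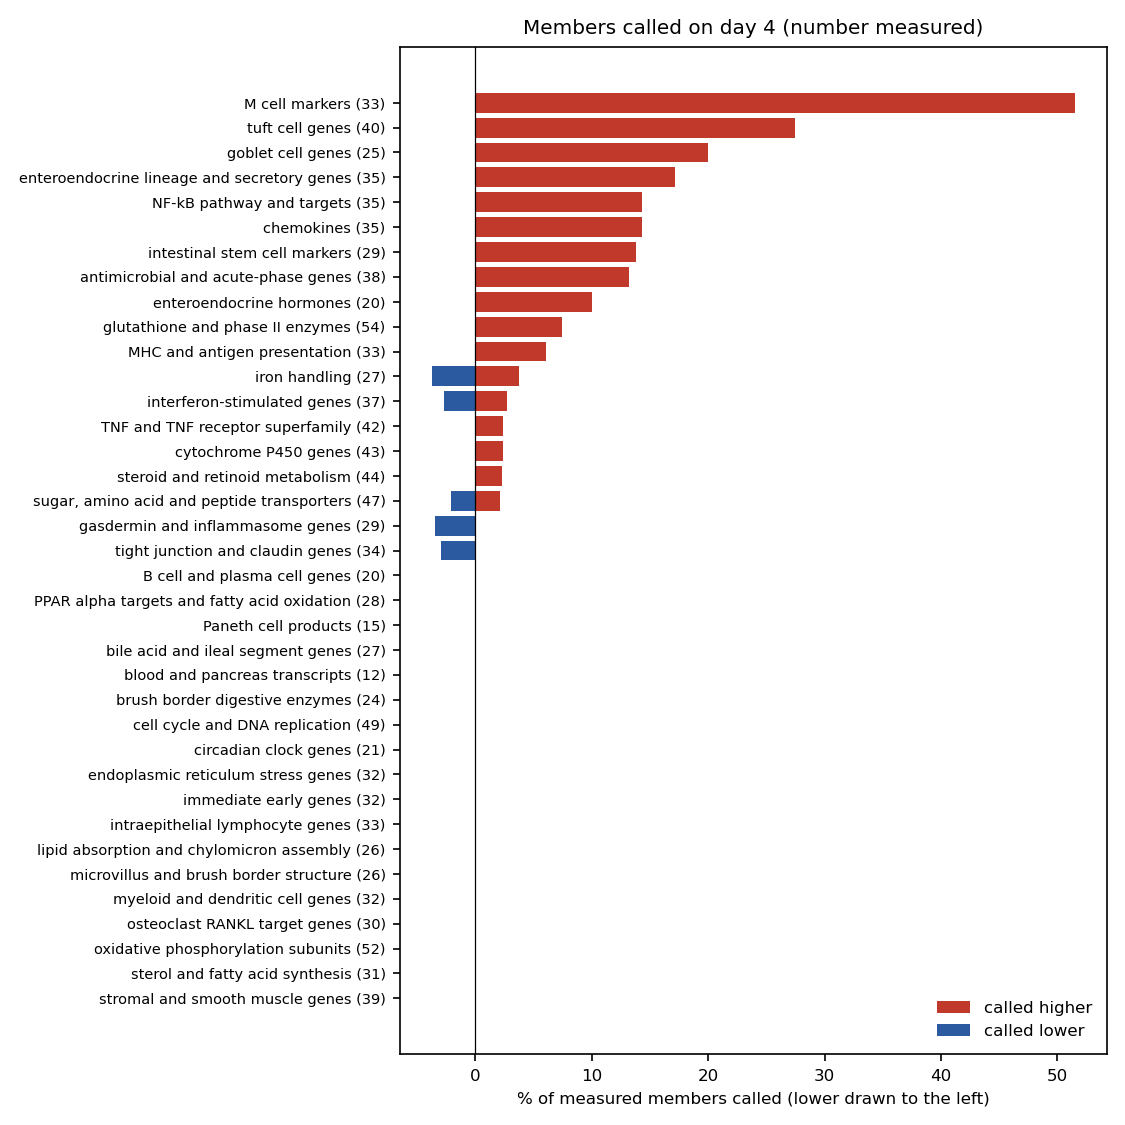
For each of 37 gene lists, with the number of measured members in brackets, red bars give the percentage of members called higher on day 4 and blue bars, drawn to the left, the percentage called lower. The M cell list stands at 51.5% and the tuft cell list at 27.5%, and no list has more than 1 member called lower. Over all genes 0.818% were called higher and 0.0903% lower. The lists were chosen with earlier results of these data known.

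Enzymes that conjugate or hydrolyse foreign compounds and steroids were among the rises. Of 54 measured glutathione and phase II genes 4 (7.4%) rose, against 0.818% of all genes, and none fell, with a median of 0.17. Gsta3, a glutathione transferase, read 7.12, 7.25 and 6.90 in the controls and 8.89, 8.60 and 8.96 on day 4, a rise of 1.73 ± 0.25 (3.31-fold, adjusted p = 0.00312), and Gsta4 rose by 1.17 ± 0.19. The carboxylesterase gene Ces1g rose by 1.70 ± 0.24, while the related gene Ces1f did not pass (0.38 ± 0.20, adjusted p = 0.611). Glutathione transferases and carboxylesterases are families of near-identical genes, so probe sets may share signal between members. Hsd17b6, a steroid dehydrogenase, read 7.15, 8.64 and 8.94 in the controls and 10.89, 10.98 and 10.61 on day 4. Its rise of 2.58 ± 0.43 (5.99-fold, adjusted p = 0.00839) had an adjusted p of 0.0508 without day 4 replicate 2. Cyp2c65, an intestinal cytochrome P450, spread over 9.34 to 10.76 in the controls and 9.64 to 10.66 on day 4, a difference of 0.05 ± 0.40. Scd1, a fatty acid desaturase, was lower by a difference of -0.98 ± 0.32 that did not pass (adjusted p = 0.28).

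Several of the greatest rises lay outside every list. Itih5, which encodes a hyaluronan-binding heavy chain, read 6.73, 6.63 and 6.72 in the controls and 8.70, 8.89 and 9.49 on day 4, a rise of 2.33 ± 0.19 (5.04-fold, adjusted p = 3.09e-05). Cntnap1, a contactin-associated protein gene known from nerve, rose by 1.60 ± 0.15, and Adgrd1, an adhesion G protein-coupled receptor gene, by 1.52 ± 0.14. The transcript listed as D17H6S56E-5 rose by 1.51 ± 0.21, and Eno3, an enolase, by 1.43 ± 0.21. In each of these the 3 treated arrays lay above all controls, which the rule for naming them required.

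Falls were fewer, and only 4 of the 18 passed with every array left out in turn. Gsdmc2, a member of the pore-forming gasdermin family, read 7.14, 7.45 and 7.35 in the controls and 6.28, 5.99 and 5.99 on day 4, a change of -1.23 ± 0.11 (adjusted p = 6.83e-05). Ifnlr1, the specific chain of the type III interferon receptor, read 8.65, 8.64 and 8.90 against 7.92, 7.40 and 7.60, a change of -1.09 ± 0.14 (adjusted p = 0.000992). Ifnar2, a chain of the type I interferon receptor, moved the other way, from 7.42 to 7.61 up to 8.32 to 8.77, a rise of 0.98 ± 0.13 (adjusted p = 0.00184). Tgfbi, an extracellular matrix protein induced by TGF-beta, changed by -0.90 ± 0.12, from 11.65 to 11.74 down to 10.63 to 10.96. Slc6a20b, a transporter of imino acids, changed by -0.71 ± 0.11. The gasdermin and inflammasome list of 29 genes had no other call. The gasdermin genes Gsdmd (-0.25 ± 0.17) and Gsdmc4 (-0.20 ± 0.05) were not called. Whether the Gsdmc2 probe set also reads related gasdermin genes was not tested.

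Of the other 14 falls, those of at least 1 log2 unit had standard errors of 0.17 to 0.37. Slc40a1, which encodes ferroportin, the iron exporter of the basolateral membrane, read 8.67, 8.68 and 8.60 in the controls and 6.51, 6.46 and 7.68 on day 4. Its change of -1.77 ± 0.37 (adjusted p = 0.0417) was lost without 9 of the 15 arrays in turn, at adjusted p of 0.209 without day 4 replicate 2. Tfrc, the transferrin receptor that takes up iron, was higher by 1.16 ± 0.20 (adjusted p = 0.00977), a call that ended without day 4 replicate 2 (0.0575) or control replicate 1 (0.0532). Slc40a1 and Tfrc were the only calls among 27 iron-handling genes. Pla2g4c (-1.30 ± 0.27), Slc30a10 (-1.13 ± 0.21), C2, a complement component (-1.04 ± 0.17), and Car3 (-1.0 ± 0.20) fell as well. They are named after their values were seen. Each of these calls ended in at least 1 leave-out, at adjusted p of up to 0.174, 0.0987, 0.0544 and 0.134 respectively.

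Interferon-stimulated genes did not separate the groups, and 1 treated array stood apart in them. Ifit1, an antiviral RNA-binding protein gene chosen here after its values were seen, read 9.39, 9.64 and 9.54 in the controls and 8.05, 11.07 and 7.63 on day 4. Oasl2, another such gene, read 8.59, 10.73 and 8.72 on day 4 against 9.74 to 9.82. Day 4 replicate 2 was thus the highest of the 6 arrays and the other 2 day 4 arrays the lowest. Over the 37 listed genes 1 rose, 1 fell and the median change was -0.09, the calls being Ifnar2 and Ifnlr1. Without day 4 replicate 2 the list had 1 rise and 4 falls.

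A pair of genes that mark position along the intestine, chosen after their values were seen, varied between arrays, Lct in both groups and Slc10a2 on day 4. Lct, the lactase of proximal villi, read 8.07, 10.46 and 10.73 in the controls and 12.03, 11.76 and 8.57 on day 4, a difference of 1.03 ± 0.99. Slc10a2, the bile acid transporter of the ileum, read 11.87, 11.81 and 11.65 against 10.63, 10.17 and 11.51, a difference of -1.01 ± 0.41 (adjusted p = 0.448). Day 4 replicates 1 and 2 thus had more Lct and less Slc10a2 than day 4 replicate 3 and than any control. The part that position plays in the differences above was not tested.

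Other lists held single calls. Cyp2j13 (0.95 ± 0.20) was the only rise among 43 cytochrome P450 genes, Hsd17b6 among 44 genes of steroid and retinoid metabolism (3 rose with weights per array or with the dimmest 40% of genes left out) and Tnfrsf19 among 42 of the TNF and TNF receptor superfamily. Among 47 transporters of sugars, amino acids and peptides, Slc2a6 rose (0.85 ± 0.17) and Slc6a20b fell. Cldn8, a claudin, fell (-0.88 ± 0.18) among 34 tight junction genes. Of these, only the fall of Slc6a20b passed with each array left out, and the highest adjusted p for Cldn8 was 0.2. Over all genes 0.908% were called, so lists of such sizes often hold no call or 1. A list without a call is not thereby shown to be unchanged. No call was made in 18 of the 37 lists. They include Paneth cell genes (15 measured), the cell cycle (49), brush border enzymes (24), microvillus genes (26), lipid absorption (26), sterol synthesis (31), oxidative phosphorylation (52), endoplasmic reticulum stress (32), fatty acid oxidation (28), bile acid and ileal genes (27), immediate early genes (32), the circadian clock (21) and the targets of RANKL in osteoclasts (30). Sis, sucrase-isomaltase, read 13.20 to 13.50 in the controls and 13.22 to 13.56 on day 4, and Mki67, a proliferation marker, differed by 0.24 ± 0.24. Ctsk and Acp5, which osteoclasts switch on in response to RANKL, differed by 0.17 ± 0.11 and -0.25 ± 0.14.

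Genes of cells other than epithelium gave no call either, where 0.908% of all genes were called. For intraepithelial lymphocytes, T cells that lie between epithelial cells, 6 of 33 genes had a positive difference and the median was -0.10. Their mean log2 level was 7.69 to 7.84 in the controls and 7.43 to 7.67 on day 4, so the groups did not overlap. Their summed intensity was 12196 to 15046 in the controls and 9126 to 11648 on day 4. Cd3e, a T cell receptor subunit, read 9.42 to 9.54 against 8.75 to 9.09, a difference of -0.55 ± 0.17 (adjusted p = 0.221). B and plasma cell genes (20 measured), myeloid and dendritic cell genes (32), stromal and smooth muscle genes (39) and blood and pancreas transcripts (12) overlapped between the groups in their mean level. Stromal genes read highest on control replicate 1 and day 4 replicate 3, at 7.51 each. The part of these cells in the differences above was not tested.

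**Figure D4:**
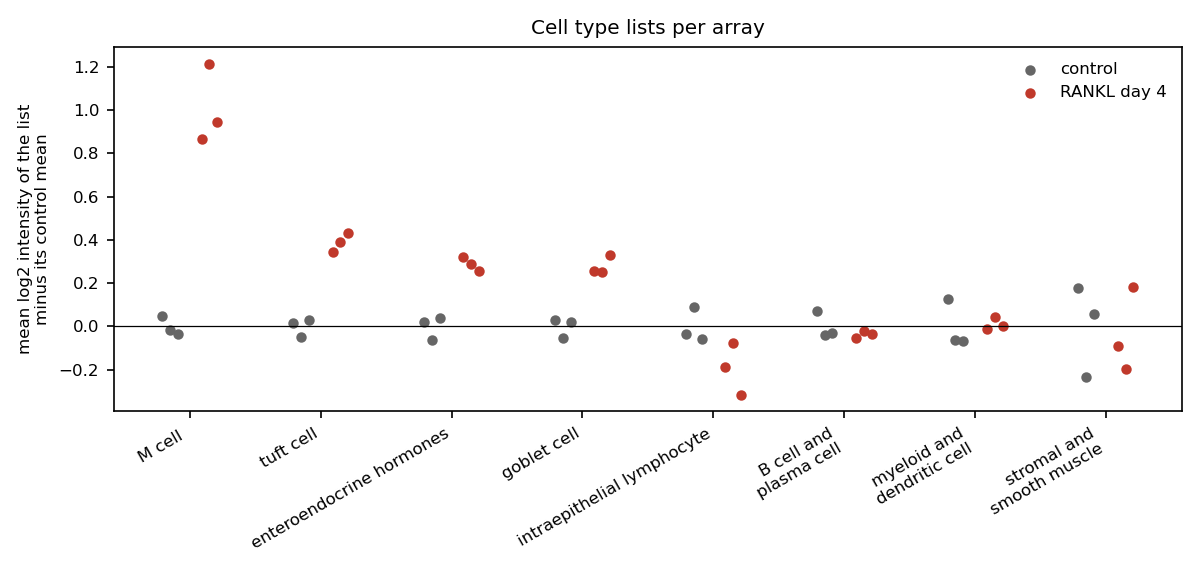
Mean log2 intensity of 8 cell-type lists on each control (grey) and day 4 (red) array, minus the list's mean over the 3 controls. The M cell, tuft cell, enteroendocrine hormone and goblet cell lists are higher on all 3 day 4 arrays than on any control. The intraepithelial lymphocyte list is lower on all 3, by a narrow gap (at most 7.67 against at least 7.69).

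Against day 1, day 4 had higher levels of Gp2 and of some tuft and enteroendocrine genes, and lower levels of Spib, Nfkb2 and Icam1. Of 19938 genes 208 (1.04%) were higher on day 4 than on day 1 and 55 (0.276%) were lower, again by limma. The day 1 arrays varied more, with root mean square deviations from their group mean of 0.19, 0.22 and 0.14 log2 units. On day 4 these were 0.10 to 0.12. The fit used 1 spread per gene over all groups, so adjusted p-values against day 1 can be too small. Day 4 is in both comparisons. Gp2 read 5.80 to 6.25 on day 1, where the controls read 5.94 to 6.22, and was 3.34 ± 0.34 higher on day 4 than on day 1 (adjusted p = 0.000631). Rgs13 read 5.39 to 5.72 on day 1 and was 2.28 ± 0.16 higher on day 4. Gcg read 9.68 to 10.3 on day 1 and was 1.42 ± 0.18 higher, and Cck read 7.33 to 7.73 and was 1.38 ± 0.14 higher. Dclk1 read 6.48 to 6.67 on day 1 and was 1.1 ± 0.09 higher. Of the 40 tuft cell genes, 9 were higher than on day 1 and 1 was lower. Of the 35 enteroendocrine lineage genes 8 were higher, and of the 54 glutathione and phase II genes 10 were. Cyp2c65, at 7.40 to 8.24 on day 1, was 2.29 ± 0.40 higher on day 4 (adjusted p = 0.0139). That call ended without day 1 replicate 1 (0.0542), day 1 replicate 2 (0.0503) or day 4 replicate 1 (0.084).

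Other genes showed the opposite course. Spib read 11.58, 10.98 and 11.09 on day 1 and was lower on day 4 by a difference of -2.11 ± 0.20 (adjusted p = 0.000354), while it stayed above the control. Icam1 read 9.51 to 9.80 on day 1 and was lower by -1.0 ± 0.09, and Nfkb2, at 10.32 to 10.46 on day 1, was lower by -0.72 ± 0.08. Relb read 9.38 to 9.43 on day 1 and was lower by -0.42 ± 0.07 (adjusted p = 0.0139), where it overlapped the control. The Relb call ended without day 4 replicate 1 (0.0589) or day 4 replicate 2 (0.0557). Of the 33 M cell markers, 2 were higher and 8 lower than on day 1. H2-M2 did not differ past the threshold from day 1 (-0.86 ± 0.26, adjusted p = 0.145). Mal, a membrane proteolipid, read 9.14 to 9.64 on day 1, and Treml4, a receptor of the TREM family, 8.03 to 8.51. They were lower on day 4 by -1.31 ± 0.19 and -1.13 ± 0.14, and neither differed from the control on day 4 (0.19 ± 0.19 and 0.07 ± 0.14, adjusted p = 0.815 and 0.908). The 263 calls became 143, 170 and 507 without day 1 replicates 1, 2 and 3, and 58 and 168 without day 4 replicates 1 and 2. Centring arrays on their medians in place of quantile normalization gave 584 calls, 95.4% of them higher against 79.1%, and put Nfkb2 at -0.47 (adjusted p = 0.0582) and Relb at -0.18 (adjusted p = 0.354). A fit of days 1 and 4 alone left 4 calls, with Gp2 at an adjusted p of 0.0706 and Spib at 0.089. In that fit Cck and Icam1 were also at 0.089, Gcg at 0.0905, Nfkb2 at 0.0999 and Cyp2c65 at 0.116.

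**Figure D5:**
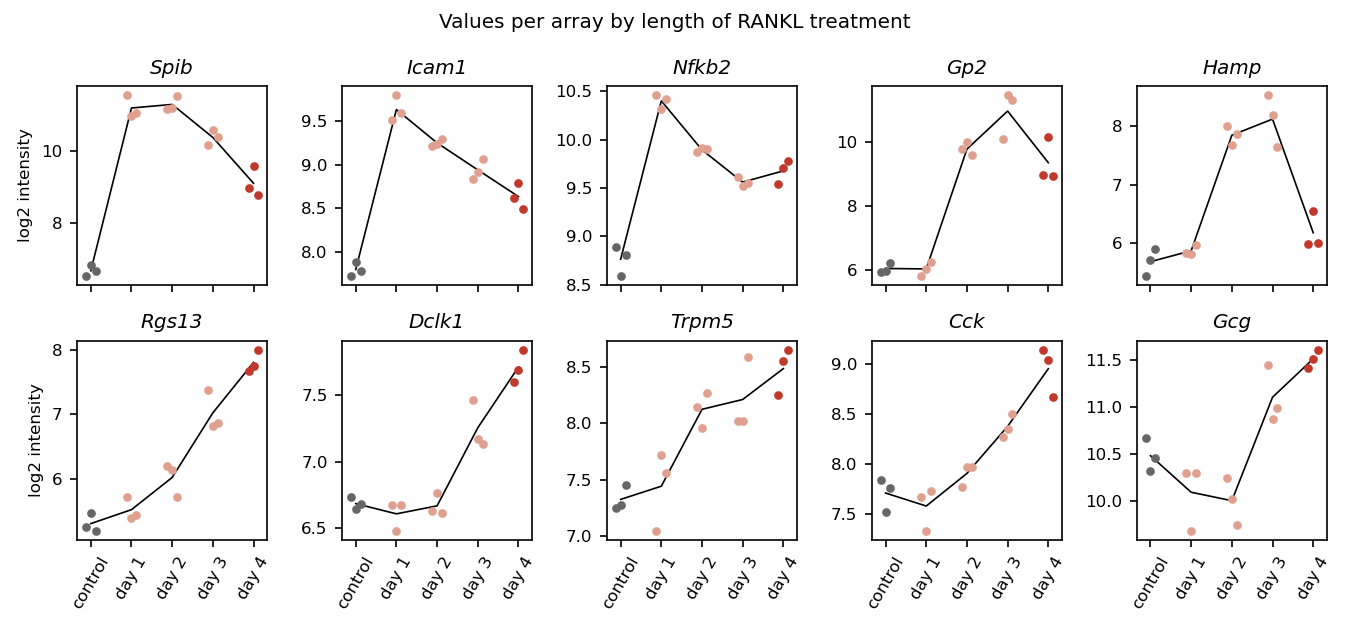
Log2 intensity on every array of the control and days 1 to 4 for genes of different course, with lines through the group means. Rgs13 and Cck are highest on day 4, Gp2 on day 3, Nfkb2 and Icam1 on day 1 and Spib on days 1 and 2, and Hamp is high on days 2 and 3. Scales differ between panels.

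From day 3 to day 4, 3 genes (0.015%) passed, all lower in this fit, and 1088 had an unadjusted p below 0.05. The count was 1 without day 4 replicate 1, 5 without day 2 replicate 3 or day 3 replicate 2, 12 without day 1 replicate 2, 15 (7 higher) without day 4 replicate 2 and 20 (8 higher) without day 3 replicate 1. With weights per array it was 179, of which 133 were higher, so neither the count nor the direction was stable. Hamp, which encodes hepcidin, the hormone that binds and degrades ferroportin, read 8.54, 8.19 and 7.65 on day 3 and 5.98, 6.55 and 5.99 on day 4. The difference was -1.96 ± 0.20 (adjusted p = 0.00412), and day 4 did not pass against the control (0.49 ± 0.20, adjusted p = 0.448). Plekhs1 (-1.06) and Wfdc18 (-1.51), named after their values were seen, also passed. Plekhs1 was lost without day 3 replicate 3, day 4 replicate 1 or day 4 replicate 3, and Wfdc18 without day 4 replicate 1, at adjusted p of 0.0579 to 0.0835. Gp2 read 10.12, 11.49 and 11.35 on day 3, and its difference of -1.63 ± 0.34 on day 4 did not pass (adjusted p = 0.182). Spib read 10.18 to 10.60 on day 3, and its difference was -1.29 ± 0.20 (adjusted p = 0.0653).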

How the data were processed

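RNA from intestinal epithelial cells was hybridised to Affymetrix arrays, 15 in all. The authors deposited 1 intensity per probe set and array on a linear scale, in a table of 28853 probe sets. How they were summarised and normalized is not given in the sources used here. The build is mm9, per the submitters' processing notes. Deposited intensities ran from 25.95 to 24106.7. Array medians on the log2 scale of the deposited values differed by up to 0.18, so log2 values, with a pseudocount of 0, were quantile normalized over the 15 arrays.

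GEO's platform annotation gave 21789 probe sets 1 gene symbol, 1621 several and 5443 none. Symbols with several probe sets (999) took the one with the highest mean over the 15 arrays, which left 19938 genes. Differences were fitted with limma 3.58.1 in R 4.3.3 (lmFit and eBayes) over all 5 groups, with 10 residual and 3.49 prior degrees of freedom and Benjamini-Hochberg adjustment over all genes. On simulated data of 19938 genes, the day 4 test recovered 53% of changes of 0.5 log2 units and 90% of changes of 1, with 4% false calls. The simulation drew independent normal noise for each gene and array. Variation shared by many genes on an array was not in it, so these shares need not hold for the real arrays.

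The comparison and the 37 gene lists (1153 of 1264 symbols measured) were chosen with earlier results of these data known. Named genes are the 18 largest rises and 14 largest falls among called genes whose arrays did not overlap and whose call passed with each array left out (only 4 falls did), passing over unnamed clones such as 4930402H24Rik, up to 5 such members of a list, the 6 largest each way against day 3 and day 1, and 22 genes named in any case. Other names were chosen after their values were seen, mostly from the lists. Alternatives changed the normalization, offset, dim-gene filter, probe-set rule, variance prior, weights, block, samples in the fit and each array.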

Additional observations from a re-analysis of the deposited data

Results flagged for a closer look

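Several genes had a day 4 change that differed from the day 1 change against the same controls. Since the controls cancel, this difference was tested as day 4 against day 1 in the limma fit. Values are day 4 minus day 1 on the log2 scale. In a fit of days 1 and 4 alone only 4 genes were called, and most of the calls listed here were lost. Genes of M, tuft and enteroendocrine cells with the greater change on day 4 were Gp2 (3.34), Rgs13 (2.28), Gcg (1.42), Cck (1.38), Dclk1 (1.10), Trpm5 (1.04), Sh2d7 (0.98), Scgn (0.92), Rfx6 (0.71) and Ccl6 (0.48). Metabolic genes higher on day 4 than on day 1 were Cyp2c65 (2.29), the glucuronosyltransferase Ugt2b36 (1.41), Ces1f (1.33), Gsta4 (0.89) and Slc6a20b (0.62). Of these, Cyp2c65, Ugt2b36 and Ces1f did not pass against the control on day 4.

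Genes lower on day 4 than on day 1 were Spib (-2.11), Mal (-1.31), Treml4 (-1.13), Icam1 (-1.0), Adgrd1 (-0.98), Marcksl1 (-0.96), Nfkb2 (-0.72), Cxcl16 (-0.60), Pglyrp1 (-0.54) and Relb (-0.42). Marcksl1, which encodes an actin-binding protein, was still above the control on day 4 by 0.94 ± 0.17 (adjusted p = 0.015), a call that ended without day 4 replicate 3, control replicate 2 or control replicate 3. Leaving out 1 array ended the day 1 calls of Ccl6 (day 4 replicate 2), Pglyrp1 and Cxcl16 (day 4 replicate 1), Relb (day 4 replicates 1 or 2), Cyp2c65 and Rfx6 (among them day 4 replicate 1), Slc6a20b and Gsta4 (among them day 4 replicates 1 or 3). With median centring Cxcl16 was at -0.36 (adjusted p = 0.17), Nfkb2 at -0.47 (0.0582) and Relb at -0.18 (0.354), and with the values as deposited Cxcl16 was at -0.45 (0.0907). Hamp differed between day 4 and day 3 by -1.96.

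Of 7064 probe sets without a single gene name, 13 were called on day 4, 12 of them higher. The only lower one was probe set 10428960, with a change of -0.58 ± 0.08. The largest change was 2.09 ± 0.17 for probe set 10402390, at 7.74, 7.5 and 7.42 in the controls and 9.39, 9.89 and 9.65 on day 4.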

How the results depend on the processing

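The 181 day 4 calls became 107 with unmoderated statistics and 289 with weights per array, and 94 to 338 with 1 array left out. The other settings gave 145 to 216, and no named gene reversed its direction in a call. The 3 calls against day 3 became 5 with median centring, 5 with a trended and robust prior, 5 with the values as deposited, 179 with weights per array and 0 with unmoderated statistics or with only the groups compared, and 1 to 20 with 1 array left out. The 263 calls against day 1 became 584 with median centring, 473 with the replicate block, 644 with weights per array, 101 with unmoderated statistics and 4 with only the groups compared, and 58 to 507 with 1 array left out. Fits of only the groups compared also hold fewer samples. The cause of these shifts was not tested for any setting.

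Whether the replicate numbers pair the samples is not stated in the labels and was not settled by the values. Control and day 4 arrays of the same number correlated in their deviations from the group mean at 0.017, 0.231 and 0.044. Arrays of different numbers correlated at -0.211 to 0.153. With the number as a replicate block, 216 genes were called on day 4 against the control, 4 against day 3 and 473 against day 1.

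With 3 arrays per group, changes near 0.5 log2 units are often missed, and readings near background understate a change. Dose, GST and injection cannot be told apart from RANKL, the arrays' source in separate mice is not stated, and regional sampling of the intestine was not tested.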

Other observations

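Some of the called genes lie side by side in the RefSeq gene order. Tmem176b and Tmem176a, a pair of membrane protein genes on chromosome 6, rose by 1.27 and 1.38. On chromosome 7 Trpm5 rose by 1.16 and the adjacent potassium channel gene Kcnq1 by 0.56. On chromosome 9 the neighbours Pou2f3 and Oaf changed in opposite directions, by 0.69 and -0.39. Cd200 and Gm609 on chromosome 16 rose by 0.55 and 0.66, and 1700016C15Rik and Adss on chromosome 1 by 1.24 and 0.67. The calls of Kcnq1, Pou2f3, Oaf, Cd200 and Adss ended when single arrays were left out, 4, 4, 12, 11 and 11 of the 15 arrays respectively. How often neighbours would both be called among genes in general was not tested.

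A few metabolic genes without a call are named after their values were seen. Adh1, an alcohol dehydrogenase that oxidises retinol, read 9.30, 10.56 and 10.89 in the controls and 12.38, 11.99 and 12.16 on day 4, a difference of 1.93 ± 0.42 (adjusted p = 0.0522). Akr1c19 read 8.04 to 8.59 against 9.65 to 10.78, a difference of 1.78 ± 0.42 (adjusted p = 0.0765). Apoa4, an apolipoprotein of chylomicrons, differed by 0.60 ± 0.15 (adjusted p = 0.0971). The median change of the lists that hold them was 0.03 over 44 genes of steroid and retinoid metabolism and 0.08 over 26 of lipid absorption.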
